A study of Rattus norvegicus with 12 samples.

Results

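Igsf5, Amhr2, Cryba2 and Prom2 are 4 genes of low signal in the rat dorsal striatum whose probes were brighter after L-DOPA. They were chosen by measured values of these arrays, on the difference between the DOPA group and the 6-OHDA group, so their own differences in that contrast are a description, and a model count over all genes is given there only as background. Igsf5 was also noted through an F test over all arrays, those of the HFS and DOPA/HFS groups included. They are 4 of the 35608 genes on the array and are read by 5 of its 41012 probes: Igsf5, which the files list under an older locus name, has 2 probes and each of the others has 1.

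RNA was measured on 12 single-colour Agilent arrays, 1 for each male rat, with 3 rats in each of 4 groups. Every rat carried a unilateral lesion, made by 9 µg of 6-OHDA (a toxin taken up by dopamine neurons) in the left substantia nigra, and the 6-OHDA group had no other treatment. In the HFS group an electrode stimulated the subthalamic nucleus of the lesioned side for 5 days (130 Hz, 80 µs, 60 µA). The DOPA group was given L-DOPA at 25 mg/kg and benserazide at 12.5 mg/kg in 2 injections a day over 19 days, and the DOPA/HFS group was given both treatments. All 4 groups were lesioned, so no level of an intact striatum enters the comparisons. In DOPA/HFS the stimulation ran during the last 5 days of L-DOPA, and the authors left out rats with a weak lesion or a misplaced electrode. The last L-DOPA injection came 12 h before the rats were killed, while stimulated rats were killed as soon as stimulation stopped.

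L-DOPA is the precursor of dopamine, and benserazide blocks its conversion outside the brain. In a striatum that has lost its dopamine terminals, repeated L-DOPA acts on sensitised D1 receptors of the direct-pathway projection neurons, which then make more of opioid and other peptide precursors such as prodynorphin (Pdyn). The 4 genes described here belong to other families. Igsf5, also called JAM4, is an immunoglobulin-type adhesion protein of epithelial junctions. Amhr2 is the type II receptor for anti-Müllerian hormone, the signal that removes the Müllerian ducts in male embryos, and it acts through BMP-type receptors and Smad proteins. Cryba2 is a beta crystallin, a family known as structural proteins of the lens. Prom2 is a pentaspan membrane glycoprotein that gathers in protrusions of the plasma membrane and is related to prominin-1 (CD133).

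The signal is the scanner software's background-corrected intensity, a linear value, put on the log2 scale and then given the same distribution on every array (quantile normalization). A probe counted as detected on an array where the software marked it well above background, which held for 50.5% to 63.2% of the spots of an array. All 4 groups were present once on each of 3 slides, and arrays with the same replicate number shared a slide. Each group kept 1 place on every slide, so place and treatment cannot be told apart. In bulk tissue, fewer cells of a type and less RNA per cell cannot be told apart either.

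The array labelled DOPA/HFS replicate 1 stood apart from the other 5 arrays of L-DOPA-treated rats. Its signal of Trh, the precursor of thyrotropin-releasing hormone, was 7.82, inside the range of 7.59 to 8.07 on the 6 arrays without L-DOPA and below the range of 10.5 to 11.03 on the other 5 arrays with it. Its signal of Pdyn was 14.68, where the arrays without L-DOPA lay between 14.36 and 14.83 and the other L-DOPA arrays between 15.81 and 16.21. The cause was not tested, and the differences of the members, Trh and Wnt10a between DOPA/HFS and HFS are given with it and without it. DOPA/HFS replicate 3 had 4175 spots marked as outliers by the software, where the remaining arrays had 2 to 25 such spots, but none of the member spots was among them.

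Detection separated Igsf5 from the other 3 genes. The brighter Igsf5 probe was well above background on 12 of 12 arrays and its second probe on 10. The probes of Cryba2, Amhr2 and Prom2 were each detected on 5 arrays, namely on 3 of 3 DOPA arrays, on DOPA/HFS replicates 2 and 3, and on 0 of 3 arrays of both the 6-OHDA and the HFS group. The filter asked for detection on 5 of 12 arrays, so these 3 genes passed it only through arrays on which they were high, and their passing is no support for a difference. Among all 41012 probes, 11 were detected on 0 of 3 6-OHDA arrays and 3 of 3 DOPA arrays. Of these 11, 4 were also detected on none of the HFS arrays: the 3 probes of Cryba2, Amhr2 and Prom2 and a probe of Ambp, a plasma protein precursor, which was detected on 1 of 3 DOPA/HFS arrays. Of the 8 probes other than the members with the same DOPA and 6-OHDA pattern, 3, 5 and 5 were detected on HFS replicates 1, 2 and 3, and 5, 6 and 7 on DOPA/HFS replicates 1, 2 and 3. These patterns were counted after the values had been seen, and 358 probes were detected on 0 of 3 6-OHDA arrays and 3 of 3 HFS arrays.

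Igsf5 was well above background in every group. Its brighter probe gave background-corrected intensities, with the scanner's error, of 57 ± 7.9, 40.4 ± 6.8 and 98.5 ± 15 on the 6-OHDA arrays and of 246.7 ± 25.2, 211.9 ± 22.1 and 153.2 ± 17.7 on the DOPA arrays. The normalized log2 signal of this probe was 5.94, 5.78 and 6.24 in the 6-OHDA group, 5.73, 6.03 and 5.86 in the HFS group, 8.12, 7.91 and 7.61 in the DOPA group, and 6.69, 7.22 and 7.45 in the DOPA/HFS group. All 3 DOPA arrays lay above all arrays of the other groups, and all 3 DOPA/HFS arrays lay between them and the 6 arrays without L-DOPA. The group means were 7.88 ± 0.26 (SD, n = 3) for DOPA, 7.12 ± 0.39 for DOPA/HFS, 5.99 ± 0.23 for 6-OHDA and 5.87 ± 0.15 for HFS, of which the last pair did not differ beyond its spread. The difference between DOPA and 6-OHDA, by which the gene was chosen, was 1.89 on the log2 scale, a fold of 3.71. It was smaller with other processing, at 1.12 with the normexp correction and 1.18 in the deposited log2 table.

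The second Igsf5 probe had the same order of group means at a lower signal. In the 6-OHDA group it was well above background on 1 of 3 arrays, so its order of 6-OHDA and HFS is not measured. It read 5.13, 4.77 and 5.01 in 6-OHDA, 5.2, 4.75 and 4.55 in HFS, 7.09, 6.78 and 7.02 in DOPA, and 5.54, 6.2 and 6.89 in DOPA/HFS. Its correlation with the brighter probe over the 12 arrays was 0.959 (Pearson), a description of probes that share their samples. Here DOPA/HFS replicate 3 reached into the DOPA range, so the DOPA and DOPA/HFS groups overlapped. DOPA/HFS replicate 1 again lay above the 6 arrays without L-DOPA, by 0.34, as it did on the brighter probe by 0.45.

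Amhr2 was well above background on 5 arrays only. Its intensities were 13.4 ± 5, 5.5 ± 5.5 and 10.4 ± 10.4 in the 6-OHDA group, the last 2 being surrogate values that the software sets for very low spots, and 72.7 ± 8.8, 73 ± 9.4 and 55.2 ± 9.8 in the DOPA group. On the log2 scale the probe read 3.89, 2.51 and 2.48 in 6-OHDA, 3.58, 3.8 and 3.52 in HFS, 6.36, 6.23 and 6.22 in DOPA, and 2.92, 6.66 and 6.8 in DOPA/HFS. The 5 detected arrays lay within 6.22 to 6.8, and DOPA/HFS replicate 1 lay among the arrays without L-DOPA. The software had not located the Amhr2 spot itself on 3 arrays, DOPA/HFS replicate 3 among them, and its local background was marked as an outlier on DOPA/HFS replicate 2, so both high DOPA/HFS arrays carry a mark. With 6-OHDA at background, DOPA was at least 2.4-fold higher in this normalization, 1.69-fold with the normexp correction and 2-fold in the deposited log2 table. This bound, used for every such probe, sets the brighter group's mean against the dimmer group's mean. On each array of the dimmer group it takes the lowest signal that was well above background where that was higher than the probe's own. It is a lower bound only where every array of the brighter group was well above background.

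Cryba2 was low on 7 arrays and high on 5. Its intensities on the DOPA arrays were 106.7 ± 12.4, 111.2 ± 13.8 and 94.5 ± 14.7, against 7.8 ± 6.8, 9.7 ± 6.5 and 14.5 ± 14.4 on the 6-OHDA arrays. That of 6-OHDA replicate 3 was a surrogate value. The log2 signal was 3.28, 3.64 and 3.35 in 6-OHDA, 3.07, 4.09 and 3.22 in HFS, 6.92, 6.9 and 6.94 in DOPA, and 3.19, 6.3 and 6.93 in DOPA/HFS. The SD of the DOPA arrays was 0.02 (n = 3), while that of the DOPA/HFS arrays was 2, since replicate 1 read at the level of the rats without L-DOPA. The spot was not located by the software on 2 arrays, DOPA replicates 1 and 2, and its local background was marked as an outlier on the first of them. The bound for DOPA over 6-OHDA was at least 3.76-fold, but 1.79-fold with normexp and 2.08-fold in the deposited table.

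Prom2 had a wider spread over the DOPA arrays than the other 3 genes. The intensities were 14.2 ± 5.8, 5.9 ± 5.9 and 12.1 ± 12.1 on the 6-OHDA arrays and 91.9 ± 10.8, 38.3 ± 7.6 and 63.5 ± 11.3 on the DOPA arrays. Those of 6-OHDA replicates 2 and 3 were surrogate values. The log2 signal was 3.96, 2.66 and 2.71 in 6-OHDA, 3, 2.56 and 3.38 in HFS, 6.71, 5.23 and 6.41 in DOPA, and 3.18, 5.81 and 5.54 in DOPA/HFS. DOPA replicate 2 and DOPA/HFS replicates 2 and 3 lay below the other DOPA arrays, yet all 5 were above every array without L-DOPA, whose highest value was 3.96. The local background of the spot was marked as an outlier on DOPA/HFS replicate 2. The bound for DOPA over 6-OHDA was at least 2.15-fold, and 1.55-fold with normexp and 1.83-fold in the deposited table.

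**Figure D1:**
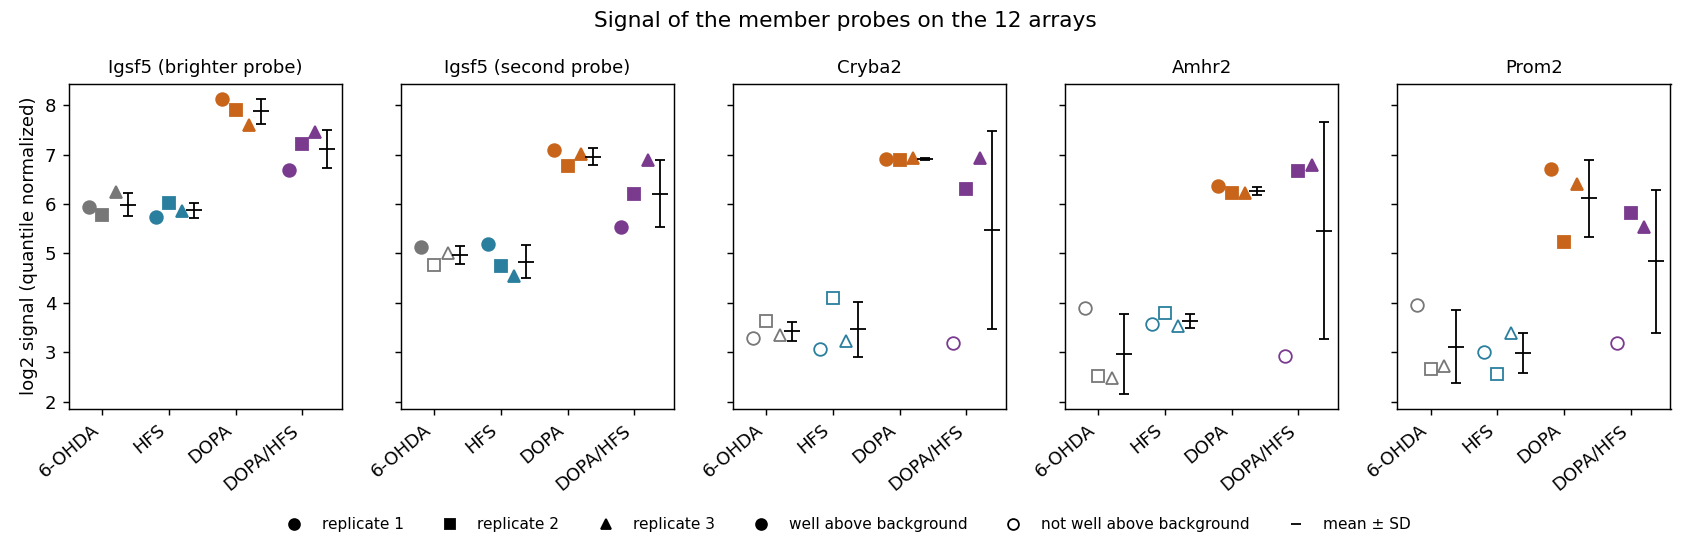
Normalized log2 signal (vertical axis) of the 5 probes of Igsf5, Cryba2, Amhr2 and Prom2 on each of the 12 arrays, by group, with symbols for the replicate number, filled where the probe was well above background, and bars for the mean ± SD of 3 arrays. The DOPA arrays are high in every panel, and in DOPA/HFS replicate 1 (circle) Cryba2, Amhr2 and Prom2 are at the level of the 6-OHDA and HFS arrays.

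In DOPA against 6-OHDA, which picked the members, the limma model over 20462 tested genes called 1 gene as higher (0.00489%), and it was Igsf5. With the slide as a replicate block the call was lost (adjusted p of 0.298). With an array left out this count ran from 0 to 13: it was 13 without DOPA/HFS replicate 1, 2 without DOPA replicate 3 or DOPA/HFS replicate 2, 1 without DOPA/HFS replicate 3, and 0 without any 1 of the other 8 arrays. For all 4 members, all DOPA arrays lay above all 6-OHDA arrays, as did those of 3.15% of the 20427 genes with a value on each of these arrays. Both follow from how the members were chosen, and nothing is read from them.

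The comparison of DOPA/HFS with HFS sets stimulated rats with L-DOPA against stimulated rats without it. Whether the L-DOPA difference was equal with and without stimulation is not answered by it, and a test of that would use the DOPA arrays that chose the members. Its differences and exact tests use none of the 6-OHDA or DOPA arrays, but the spread in the limma model came from all 12 arrays, and Cryba2, Amhr2 and Prom2 passed the filter through DOPA arrays too. Igsf5 was also noted through an F test over all 12 arrays, so its difference and exact test here are not free of the choice. In the limma fit 0 of 20462 genes were called as higher in DOPA/HFS (0%) at an adjusted p under 0.1 with a fold over 1.2, and 0 as lower, and 498 had an unadjusted p under 0.05. That count is below a share of 0.05 of the tested genes, the share expected where no gene differs. The same holds for such counts in the comparisons below. The mean of each member was higher in DOPA/HFS, and none passed the test after adjustment. Of all tested genes, 0.792% were higher with an unadjusted p under 0.05, a share that is not set against the members because 3 of them entered the test only through arrays where they were high.

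Igsf5 was higher in DOPA/HFS than in HFS by 1.25 ± 0.22 (SE) on the log2 scale, a fold of 2.37, with an adjusted p of 1 in limma. Every DOPA/HFS array lay above every HFS array on the brighter probe, as it did for 2.24% of the 18377 genes with a value on each of these arrays, and the groups of the second probe did not overlap either. The exact two-sided permutation p was 0.1, the smallest that 3 arrays against 3 can give. Within the slides the difference was 0.96, 1.19 and 1.59 on the brighter probe, so it was positive on 3 of 3 slides, and on the second probe it was 0.34, 1.45 and 2.34. With the slide as a replicate block the adjusted p was also 1. The size depended on the processing: the difference was 0.72 with the normexp correction and 0.61 in the deposited log2 table.

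For the other 3 genes the groups overlapped through DOPA/HFS replicate 1. Computed as the bounds above, the fold of DOPA/HFS over HFS was 2.38 for Cryba2 (group means 5.47 and 3.46, limma adjusted p of 1). It was 2.39 for Amhr2 (means 5.46 and 3.64, limma adjusted p of 1) and 1.56 for Prom2 (means 4.85 and 2.98, limma adjusted p of 1). DOPA/HFS replicate 1, not well above background, enters these means with its own signal, so the folds are no strict lower bounds. Their size depended on the processing: they were 1.47, 1.64 and 1.26 with normexp and 1.46, 1.51 and 1.29 in the deposited table. On slide 1 neither array was well above background, so no fold is given there. On slides 2 and 3 the bounds were 4.62 and 7.03 for Cryba2, 6.17 and 6.42 for Amhr2, and 3.43 and 2.68 for Prom2. With the slide as a replicate block the adjusted p of each was 1. The exact permutation p was 0.3 for Cryba2, 0.4 for Amhr2 and 0.2 for Prom2.

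The values without DOPA/HFS replicate 1 are a description and support no difference, since that array stands out by the low signal of these same genes. Without it limma called 3 genes as higher in DOPA/HFS than in HFS, 0.0147% of those tested, namely Cryba2, Amhr2 and Trh, and 1 transcript without a gene name as lower. The group then holds 2 arrays, and its spread is estimated with the other groups. Cryba2 was then at least 5.26-fold higher with an adjusted p of 0.0102, and Amhr2 at least 5.77-fold higher with an adjusted p of 0.0432. Prom2 was at least 2.78-fold higher with an adjusted p of 0.285, and Igsf5 differed by 1.46 ± 0.2 (SE) on the log2 scale with an adjusted p of 0.112, so neither was called. Over all settings tried, the adjusted p ran from 0.0102 to 1 for Cryba2, from 0.0432 to 1 for Amhr2, from 0.285 to 1 for Prom2 and from 0.112 to 1 for Igsf5. Without DOPA/HFS replicate 3 the folds were 1.44 for Cryba2, 1.5 for Amhr2 and 1.23 for Prom2. Replicate 1 is then in the means, so these folds are no strict lower bounds. Igsf5 differed by 1.08 on the log2 scale without replicate 3, and limma called none of the members.

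Between HFS and 6-OHDA only Igsf5 can be compared, since it alone was well above background on its brighter probe in both groups. In the limma fit 0 genes were called between HFS and 6-OHDA, and 479 had an unadjusted p under 0.05. Its HFS and 6-OHDA arrays overlapped on each probe, and of the 20436 genes with a value on each of these arrays 5.12% had HFS arrays all above or all below the 6-OHDA arrays. On the brighter probe the difference was -0.11 ± 0.22 (SE) on the log2 scale. Cryba2, Amhr2 and Prom2 were not well above background in either group, so no fold is given and the sign of a difference between their signals has no meaning. This comparison shares the 6-OHDA arrays with the contrast that picked the members.

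In DOPA/HFS against 6-OHDA, which shares those arrays too, no gene passed in limma (0 called), and 565 had an unadjusted p under 0.05. There the brighter Igsf5 probe differed by 1.13 ± 0.22 (SE) and its groups did not overlap. The Igsf5 difference ran from 0.48 to 1.35 over all settings. Of the 18376 genes with a value on each of these arrays, 1.74% had every DOPA/HFS array above every 6-OHDA array. By the same computation the fold was 1.38 for Cryba2 and 1.36 for Amhr2, each with a limma adjusted p of 1. These means hold replicate 1 too, so the folds are no strict lower bounds. Folds with normexp and in the deposited table were 1.3 and 1.39 for Cryba2 and 1.54 and 1.6 for Amhr2. For Prom2 the value was under 1 and no fold is given, but it was 1.13 and 1.25 in these settings. Without DOPA/HFS replicate 1 the bound was 3.04 for Cryba2 and 3.29 for Amhr2, both with a limma adjusted p of 0.00721 (0.00721 to 1 over all settings), and 1.59 for Prom2 (adjusted p of 0.453), while Igsf5 differed by 1.35 on the log2 scale (adjusted p of 0.2). Without DOPA/HFS replicate 3 the values so computed were under 1 for Cryba2, Amhr2 and Prom2. As above, values without replicate 1 support no difference.

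Igsf5 was chosen for its high DOPA arrays, so its difference between DOPA/HFS and DOPA is only described. On the brighter probe it was -0.76 ± 0.22 (SE) on the log2 scale, a fold of 0.591, with a limma adjusted p of 1. The limma fit called 0 genes in this comparison, and 775 had an unadjusted p under 0.05. All 3 DOPA/HFS arrays lay below all 3 DOPA arrays, as in 5.66% of the 18372 genes with a value on each of these arrays, but on the second probe the groups overlapped (difference -0.75). Without DOPA/HFS replicate 1 the difference was -0.54 for Igsf5, -0.31 for Cryba2, -0.44 for Prom2 and 0.46 for Amhr2. With it, Cryba2, Amhr2 and Prom2 were well above background on 2 of 3 DOPA/HFS arrays, and no size is given for them. These values share the DOPA arrays with the choice of the members.

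The genes whose pattern over the 12 arrays was most like that of each member were found by Pearson correlation of log2 signal among 18350 other genes with a value on every array. Because the arrays of most of these genes fall at a high and a low level, the correlation mainly describes which arrays were high, and it includes the arrays that picked the members. The closest to Cryba2 were Trh (0.986), Pdyn (0.972), Crhr1 (0.97), Gss (0.965) and Nefh (0.962). Crhr1 is the type 1 receptor for corticotropin-releasing hormone, Gss is glutathione synthetase and Nefh is the heavy neurofilament subunit. The closest to Igsf5 were Tnnt1 (0.946), which encodes a slow skeletal troponin T, Gss (0.936), Pdyn (0.936), Trh (0.932) and Cryba2 (0.928). For Amhr2 the list held Tpm1 (0.956), a tropomyosin, Tnfsf9 (0.949), Grem1 (0.949), a secreted BMP antagonist, Cryba2 (0.946) and Trh (0.946). Prom2 was closest to the unnamed transcript TC556487 (0.951), the potassium channel gene Kcnk13 (0.946), Pip5k1b (0.937), Trh (0.933) and Amhr2 (0.932). Trh stood in the lists of all 4 members.

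Trh was high on the arrays where the members were high. It read 8, 8.07 and 8.04 in 6-OHDA, 7.59, 7.78 and 7.81 in HFS, 10.77, 10.75 and 10.61 in DOPA, and 7.82, 10.5 and 11.03 in DOPA/HFS, and it was well above background on all 12 arrays. On DOPA/HFS replicate 1, Trh, Cryba2, Amhr2 and Prom2 read within the range of the arrays without L-DOPA. On its brighter probe Igsf5 lay 0.53 below the lowest of the other 5 L-DOPA arrays and 0.45 above the highest array without L-DOPA, so it alone of the members was intermediate on that array.

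**Figure D2:**
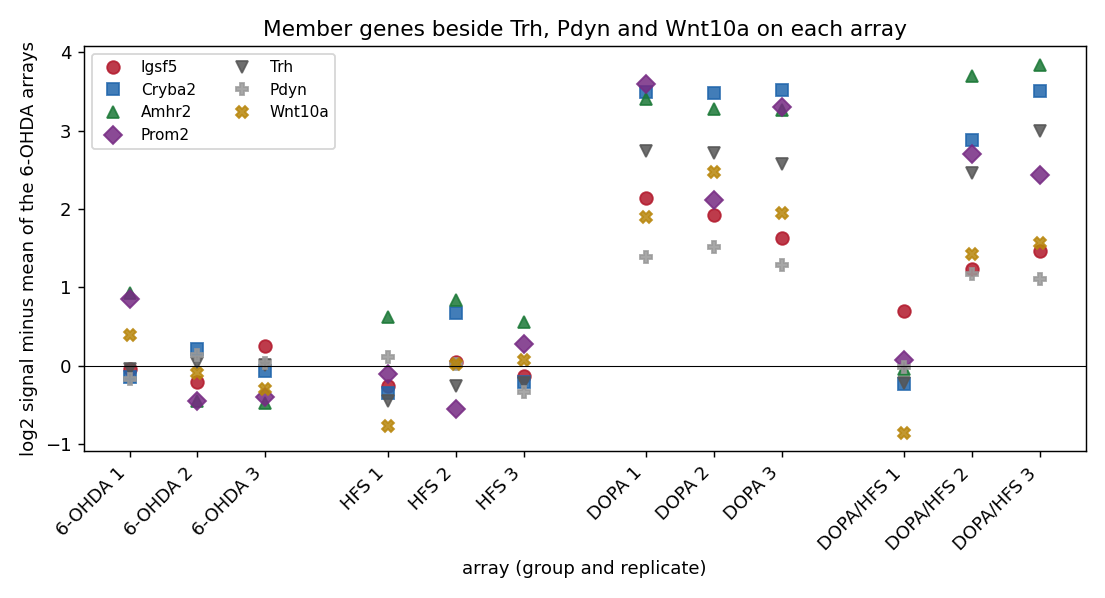
Log2 signal minus the mean of the 3 6-OHDA arrays (vertical axis) for Igsf5, Cryba2, Amhr2, Prom2, Trh, Pdyn and Wnt10a on each of the 12 arrays, with 1 point per gene and array. On the DOPA arrays and DOPA/HFS replicates 2 and 3 all 7 genes are above the line at 0, and on DOPA/HFS replicate 1 each gene lies nearer to that line.

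Of the genes beside the members in the genome, few could be tested, and none of those next to Cryba2. In the RefSeq gene table of the rat assembly GRCr8, the 2 protein-coding genes on either side of each member make 16 neighbours, of which 7 had no probe under their present names, 3 did not pass the filter and 6 were tested. Beside Igsf5 lie Pcp4, a calmodulin-binding peptide abundant in striatal neurons, and the adhesion gene Dscam. Pcp4 differed between DOPA/HFS and HFS by 0 ± 0.12 (SE) and Dscam by -0.23 ± 0.25. Beside Amhr2, the transcription factor gene Sp1 differed by 0.1 ± 0.33 and the RNA-binding gene Pcbp2 by 0.07 ± 0.2. Beside Prom2, Kcnip3, which encodes a calcium-binding protein known as a repressor of prodynorphin transcription, differed by -0.24 ± 0.35, and Fahd2a by -0.02 ± 0.27. In DOPA against 6-OHDA the 6 tested neighbours differed by -0.1 to -0.02, and none had groups without overlap in either comparison.

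Wnt10a, a secreted Wnt ligand, is the gene at place 3 from Cryba2 on one side, outside the rule for neighbours, and was singled out after its values were seen. Its brighter probe read 8.64, 8.15 and 7.95 in 6-OHDA, 7.48, 8.27 and 8.32 in HFS, 10.14, 10.72 and 10.2 in DOPA, and 7.39, 9.67 and 9.81 in DOPA/HFS. Its other probe read 6.42, 5.56 and 5.81 in 6-OHDA, 5.56, 6.01 and 6.08 in HFS, 7.48, 7.8 and 7.73 in DOPA, and 5.46, 6.87 and 7.47 in DOPA/HFS. On both probes the same 5 arrays were high as for Cryba2, and DOPA/HFS replicate 1 was the lowest of the 12 arrays. Fev, the gene next to Cryba2 on that side, was well above background on 0 arrays. Between DOPA and 6-OHDA Wnt10a differed by 2.11 ± 0.54 (SE), with an adjusted p of 1 in limma, and of 0.041 without DOPA/HFS replicate 1 (0.041 to 1 over all settings). Between DOPA/HFS and HFS it differed by 0.93 ± 0.54 (adjusted p of 1 in limma), by 1.72 without DOPA/HFS replicate 1 (adjusted p of 0.262), and by 0.51 to 1.72 with an array left out. Values of Wnt10a without replicate 1 support no difference, since the gene was chosen with its values in view and was lowest on that array. Also at place 3, beside Prom2, the mitochondrial ribosome gene Mrps5 had DOPA/HFS arrays all above the HFS arrays (0.18 ± 0.16, adjusted p of 1 in limma), where the share over all genes was 2.24%.

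Relatives and partners of the members are described by counts, and as 0 of 20462 genes were called in DOPA/HFS against HFS, a count of 0 calls in a list says nothing particular about it. Of 17 tested junctional adhesion and partner genes other than Igsf5, limma called 0. Of the 16 with a value on each of these arrays 0 had groups that did not overlap, where the shares over all genes were 2.24% for higher and 4.13% for lower. Their median log2 difference was 0.01, against -0.02 over all tested genes. Jam2 read between 9.76 and 10.4 and Jam3 between 9.8 and 10.66 over the 12 arrays. In DOPA against 6-OHDA the tight-junction gene Cldn5 was the 1 gene of the list with higher arrays throughout (difference 0.27), where the share over all genes was 3.15%.

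Of 29 tested genes of the anti-Müllerian hormone and BMP pathway other than Amhr2, 0 were called in DOPA/HFS against HFS (0% of all genes). Of the 25 with a value on each array compared, 1, the receptor gene Tgfbr1, had higher arrays throughout (difference 0.27), where the share over all genes was 2.24%. The median was -0.04. Amh, which encodes the ligand, was well above background on 10 arrays and differed by 0.21 ± 0.36 (SE). Its partner receptors Acvr1 and Bmpr1a differed by 0.24 ± 0.41 and -0.14 ± 0.13, and Bmpr1b was well above background on 0 arrays. In DOPA against 6-OHDA the activin subunit gene Inhba (difference 1.16 ± 0.29) and Bmpr1a (0.24 ± 0.13) had higher arrays throughout and the BMP antagonist Nog lower ones (-0.92 ± 0.27), again with 0 called. Over the 20427 genes with a value on each of these arrays, 3.15% had higher and 3.11% lower arrays throughout.

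Of 10 tested crystallin-named genes other than Cryba2, 0 were called in DOPA/HFS against HFS. Of the 9 with a value on each array compared, 1, the lens alpha crystallin gene Cryaa, had lower arrays throughout (difference -0.19), as had 4.13% of 18377 genes. The median was -0.17. Other beta crystallins were dim, with Crybb1 well above background on 9 arrays, Cryba4 and Crybb3 on 2 each, Cryba1 on 1 and Crybb2 on 0. Crym, a thyroid-hormone-binding protein of striatal neurons that carries the crystallin name, read between 15.45 and 16.1. Of 14 tested prominin and membrane-protrusion genes other than Prom2, 0 were called in DOPA/HFS against HFS, with a median of 0.01. Of the 11 with a value on each array compared, 0 had groups that did not overlap. The shares over all genes were 2.24% for higher and 4.13% for lower. In DOPA against 6-OHDA Ezr was the 1 gene of this list with lower arrays throughout (difference -0.26), where the share over all genes was 3.11%. Prom1, the relative of Prom2, was well above background on 12 arrays and read 9.77, 10.01 and 10.05 in 6-OHDA, 9.89, 9.42 and 9.96 in HFS, 9.88, 9.79 and 9.9 in DOPA, and 9.62, 9.47 and 9.64 in DOPA/HFS.

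The list of dopamine-responsive striatal genes gave 0 calls among 27 tested genes in DOPA/HFS against HFS, with a median of -0.24. Of the 26 with a value on each array compared, 3 had higher arrays throughout and 4 lower ones, where the shares over all genes were 2.24% and 4.13%. Trh, Th (tyrosine hydroxylase) and Prkcd (protein kinase C delta) were the higher ones, and the activity-regulated genes Fos, Arc, Nr4a3 and Dusp1 the lower ones. Trh is among them only by 7.82 on DOPA/HFS replicate 1 against 7.81 on HFS replicate 3. The difference was 2.06 ± 0.61 (SE) for Trh, and 1.43 to 3.04 with an array left out. It was 3.04 without DOPA/HFS replicate 1 (limma adjusted p of 0.000196). That value supports no difference, since the array was singled out by its low Trh. For Th the difference was 0.33 ± 0.26, and 0.01 to 0.84 over all settings. The others were 0.96 ± 0.25 for Prkcd, -1.65 ± 0.42 for Fos, -0.94 ± 0.33 for Arc, -1.5 ± 0.26 for Nr4a3 and -0.84 ± 0.37 for Dusp1. In DOPA against 6-OHDA 8 genes of the list had higher arrays throughout (Trh, Pdyn, Nr4a3, Th, Cnr1, Inhba, Gad1 and Prkcd) and 4 had lower ones (Fos, Junb, Egr4 and Btg2), where the shares over all genes were 3.15% and 3.11%, with a median of 0.11 against -0.01 over all tested genes. The list was chosen with earlier results of these data known, so its counts in both comparisons are only a description. Fos read 7.17, 7.26 and 7.62 in DOPA and 8.06, 7.92 and 9.85 in 6-OHDA, so this early gene was low where the members were high. On DOPA/HFS replicate 1 the 2 readings parted: Fos was 7.05, below every array without L-DOPA, while Cryba2, Amhr2 and Prom2 were in the range of those arrays. RNA was taken at 1 time after the last injection, so an earlier change in Fos would not be seen.

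Of the marker lists, that of the choroid plexus had the most genes whose DOPA/HFS and HFS arrays did not overlap, with 0 of 9 tested genes called. Of the 7 with a value on each array compared, 6 (Ttr, Sostdc1, Kcnj13, Otx2, Aqp1 and Enpp2) had every DOPA/HFS array below every HFS array, where the share over all genes was 4.13%, and the median difference of the 9 was -2.41. The summed linear signal of the 12 markers on the array was 96504, 10144 and 57456 in HFS, 5780, 4668 and 4168 in DOPA/HFS, 3744, 5525 and 20685 in DOPA, and 3686, 3661 and 6393 in 6-OHDA. By mean log2 signal over the 12 arrays, which does not rank transcripts between probes, Enpp2 came first (12.14, against 9.07 for Ttr). On HFS replicates 1 and 3, where the summed linear signal was highest, Enpp2 read 12.54 and 13.53, below Ttr. Ttr, which encodes transthyretin, read 16.3, 11.86 and 15.28 in HFS, 8.28, 9.25 and 2.79 in DOPA/HFS, 2.41, 10.29 and 13.81 in DOPA, and 6.23, 6.59 and 5.8 in 6-OHDA.

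Of the other marker lists, the ependyma list had 1 of 5 genes with a value on each array (Rsph1) with lower arrays in DOPA/HFS than in HFS, the leptomeninges list 1 of 8 (Igf2) and the epithelium list 1 of 5 (Krt18), and 0 genes of these lists had higher ones, where the shares over all genes were 4.13% for lower and 2.24% for higher. The epithelial list bears on Igsf5 and Prom2, which are known from epithelia. Its summed signal was 1056, 2891 and 1435 in 6-OHDA, 3223, 1593 and 2269 in HFS, 1331, 1296 and 2002 in DOPA, and 1352, 1374 and 1329 in DOPA/HFS, its first gene by mean log2 signal was Krt18, and Cdh1 was well above background on 1 array. In DOPA/HFS against HFS, 0 of 10 such markers of striatal projection neurons, 0 of 4 of cortex, 0 of 8 of microglia, 0 of 6 of endothelium and 0 of 7 of oligodendrocytes had groups that did not overlap, beside the same shares. The 11 projection neuron markers were all detected, with Penk first by mean log2 signal and summed signals of 277177 to 380538, so the defining markers of striatum were present. The part of any of these cell types in the members' values was not tested.

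The promoters of 3 members are in the RefSeq promoter table of GRCr8, which gives 300 bases around the start of a transcript, and they are shown because these genes were high on the same arrays. They were searched on both strands for 4 motifs of factors that respond to neuronal activity: the AP-1 motif TGACTCA, the cyclic AMP response element TGACGTCA, the NR4A motif AAAGGTCA and the EGR motif GCGTGGGCG. Of 33469 promoters in the table, 4.63% held the AP-1 motif, 1.83% the cyclic AMP response element, 1.43% the NR4A motif and 0.544% the EGR motif. The Cryba2 promoter held the AP-1 letters at bases 157 to 163, printed in capitals, and the promoters of Amhr2 and Prom2 held none of the 4. No match was found in the promoters of Trh, Pdyn or Wnt10a either. A match is only a description of the letters, and these starts are those of the table: the starts used for Cryba2 and Amhr2 lie 7520 and 3405 bases inside the gene's outermost annotated end, and that of Prom2 lies 53 bases inside it. The Cryba2 promoter is at chr9:83899082-83899381 (minus strand), that of Amhr2 at chr7:135457672-135457971 (plus strand) and that of Prom2 at chr3:135215028-135215327 (minus strand), all in GRCr8.
Cryba2: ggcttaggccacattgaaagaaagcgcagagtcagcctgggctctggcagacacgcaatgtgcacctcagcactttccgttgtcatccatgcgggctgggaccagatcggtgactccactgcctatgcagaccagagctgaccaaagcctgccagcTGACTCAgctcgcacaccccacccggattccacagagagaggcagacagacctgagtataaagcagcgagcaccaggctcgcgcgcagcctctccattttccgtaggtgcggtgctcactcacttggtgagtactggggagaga
Amhr2: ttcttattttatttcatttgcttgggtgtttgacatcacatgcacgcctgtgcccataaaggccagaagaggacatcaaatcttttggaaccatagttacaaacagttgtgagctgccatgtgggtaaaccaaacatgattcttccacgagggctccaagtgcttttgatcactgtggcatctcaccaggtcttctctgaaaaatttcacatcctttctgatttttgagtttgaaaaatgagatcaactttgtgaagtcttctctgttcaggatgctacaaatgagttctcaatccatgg
Prom2: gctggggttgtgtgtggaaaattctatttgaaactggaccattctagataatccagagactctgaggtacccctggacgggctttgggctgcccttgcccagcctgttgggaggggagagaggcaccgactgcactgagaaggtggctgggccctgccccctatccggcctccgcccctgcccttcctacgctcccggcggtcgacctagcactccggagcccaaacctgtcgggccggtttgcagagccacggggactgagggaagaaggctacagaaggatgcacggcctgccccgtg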

How the data were processed

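The members and gene lists were chosen with earlier results of these data known. Per the file headers, the authors' scanner files hold an intensity for each spot, made with Agilent Feature Extraction 9.1. It was corrected for background by the software on a linear scale and not normalized between arrays. More than the local background was removed: Cryba2 on 6-OHDA replicate 1 had a spot mean of 85.8, a local background of 44 and an intensity of 7.8. The marks for spots well above background and for outliers are other values of the same deposited files. The log2 table that the authors deposited was quantile normalized by them, with array medians of 7.23 to 7.28.

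Of 45018 spots per array, 1639 controls were removed, as were outlier spots. The gene table of GRCr8 named 10735 of 41012 probes. On the log2 scale the arrays were quantile normalized, and the spots of a probe were averaged. A probe stayed if it was well above background on 5 of 12 arrays, and the brightest probe stood for its gene, which left 20462 genes. The model was lmFit with eBayes from limma 3.58.1 over all 12 arrays and 4 groups, run in R 4.3.3 with the packages jsonlite 2.0.0 and data.table (version 1.17.8). Figures and motif counts used Python 3.11.15 and matplotlib 3.10.9. Calls needed a fold over 1.2 or under 0.8 and an adjusted p (Benjamini-Hochberg) below 0.1. Single values were compared by an exact two-sided permutation test. Arrays with the same replicate number share a slide, which entered only as an alternative. Simulated data were used to test the fits, but no value from them is given and no result here rests on them. The number of arrays limits the precision.

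The genes named are the members, list genes with groups that do not overlap in DOPA/HFS against HFS, the first of 3 marker lists by mean log2 signal, the 5 genes most like each member, the 2 neighbours on either side and Ttr. All other genes, among them Ambp, Wnt10a, relatives of the members and list genes named for DOPA against 6-OHDA, were singled out with their values in view. Alternatives were scaling to the 75th percentile, normexp with an offset of 50, the deposited table, no filter or a filter of 3 arrays of a group, the mean of a gene's probes, the replicate block, a fit of 6 arrays, a limit of 0.05 on the adjusted p, no limit on the fold, outlier spots kept and each array left out in turn. The RT-qPCR samples were not used.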

Additional observations from a re-analysis of the deposited data

How the results depend on the processing

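Under the alternatives, 8 of 460 values of the 4 members newly passed the call limits and 13 no longer did. The 13 are all of Igsf5 in DOPA against 6-OHDA, its 1 call, which held under 10 of 23 alternatives. Of the 8, 7 came without DOPA/HFS replicate 1, among them Cryba2 and Amhr2 in DOPA/HFS against HFS, and 1 was Cryba2 in DOPA against 6-OHDA with only the 6 arrays compared. Of 2530 values of other genes, 13 newly passed, 11 of them without DOPA/HFS replicate 1, and 38 moved by more than the spread of the arrays. Values that were never called changed sign for 4 members. Between HFS and 6-OHDA Cryba2 and Prom2 were not well above background, so their signs have no meaning and no fold follows. There the fitted log2 value of Cryba2 was -0.1 with scaling to the 75th percentile, -0.06 with normexp, -0.08 in the deposited table, and -0.28 to 0.23 with an array left out (-0.03 without 6-OHDA replicate 1, 0 without 6-OHDA replicate 3, -0.28 without HFS replicate 2). There, with an array left out, Igsf5 was -0.22 to 0.01 (0.01 without 6-OHDA replicate 3) and Prom2 -0.35 to 0.3, namely 0.3 without 6-OHDA replicate 1 and 0.08 without HFS replicate 2. Between DOPA/HFS and DOPA Amhr2 was -1.48 to 0.46 with an array left out, 0.46 without DOPA/HFS replicate 1. Where that array is kept, this value holds a signal not well above background and is no measured size. For DOPA/HFS against HFS, limma called 0 genes (498 at an unadjusted p under 0.05), but 3 with no filter on dim probes, 1 with the filter of 3 arrays of a group, and 0 to 4 with an array left out, the 4 without DOPA/HFS replicate 1. For HFS against 6-OHDA the counts were 0, 3, 1 and 0 to 2. For DOPA/HFS against 6-OHDA the count was 0, and 0 to 3 with an array left out. For DOPA/HFS against DOPA it was 0 under all 23 alternatives, and 0 to 0 with an array left out. For DOPA against 6-OHDA, where 1 gene (Igsf5) was called, the count was 0 with no filter, 0 with the mean of all probes, 0 at an adjusted p under 0.05, 2 (Cryba2 and Trh) with only the 6 arrays compared, and 0 to 13 with an array left out. It was 0 with the replicate block, which pairs the arrays of a slide. Deviations from the group mean correlated between arrays of a slide by -0.287 to 0.476, with a median of 0.112. The cause of these changes was not tested. The folds of Amhr2, Cryba2 and Prom2 are set against signal at background and are not exact. In DOPA/HFS against HFS they fell from 2.39, 2.38 and 1.56 to 1.51, 1.46 and 1.29 in the deposited table. In DOPA/HFS against 6-OHDA they went the other way, from 1.36, 1.38 and 0.892 to 1.6, 1.39 and 1.25. Each group holds 3 arrays, and position on the slide cannot be told apart from treatment.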
